A study of Mus musculus with 6 samples.

Results

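The genes described are 10 that encode proteins of the cartilage matrix other than collagens, or proteins that cartilage cells secrete into it: Acan, Hapln1, Comp, Matn3, Prg4, Cnmd, Snorc, Ucma, Cytl1 and Clec3a. They were chosen by name, and all 10 were found among the 54532 genes measured. RNA was sequenced from bone of female C57BL/6J mice aged 16 weeks, in 3 libraries from MIR29cb2-/- mice (MIR29cb2-KO, called knockout below) and 3 from wild-type mice (WT). The cluster deleted in the knockout holds the genes of miR-29b-2 and miR-29c. The skeletal site, the presence of joint ends and the handling of marrow are not given in the labels.

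Cartilage is built around aggrecan, a proteoglycan whose charged sugar chains hold water and which link protein ties to strands of hyaluronan. Adaptor proteins such as COMP and the matrilins join this gel to the collagen fibrils. In a long bone these proteins are made by chondrocytes of the growth plate, where bone lengthens, and of the articular surface, where cells of the surface layer and of the synovium also secrete the lubricant lubricin. In bulk tissue fewer cells of a type and less RNA per cell cannot be told apart.

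The microRNAs of the deleted cluster, and those of the sister cluster on chromosome 6, share 1 seed, the stretch that pairs with target RNAs. They are shown because the 2 sites printed after them match that seed. Capitals mark the seed, bases 2 to 8 (RefSeq, GRCm38.p6).
miR-29b-3p (Mir29b-2, chr1:195037091-195037113, plus strand): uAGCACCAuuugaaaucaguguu
miR-29c-3p (Mir29c, chr1:195037600-195037621, plus strand): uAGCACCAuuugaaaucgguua
miR-29a-3p (Mir29a, chr6:31062673-31062694, minus strand): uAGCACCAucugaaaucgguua

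Of the 10 genes, 9 have an annotated 3′ UTR of at least 30 bases in GENCODE M21, and 2 of these hold the letters TGGTGCT, the reverse complement of the seed: Matn3 and Hapln1. The same letters stood in 13.9% of 20815 genes with such a UTR. A match is a string of letters and not a shown site of binding. Capitals mark it in the 2 stretches below, read on the transcript strand; both genes lie on the plus strand, and the coordinates (mm10) are those of the capitals. In Matn3 an A follows the match, which makes it an 8mer.
Matn3 (chr12:8971200-8971206): ctatgaacttaTGGTGCTaagatttttgct
Hapln1 (chr13:89610230-89610236): agtataggaaaTGGTGCTgatcaaaatctc

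RefSeq promoter windows, from 250 bases before to 50 after the start of the gene, were at hand for 6 of the 10 genes (Acan, Cnmd, Cytl1, Hapln1, Matn3 and Ucma). Both strands were searched for 4 short motifs. The core letters read by SOX proteins, the main transcription factors of cartilage, are ACAAT, and they stood in 1 of the 6 windows, that of Hapln1, against 31.0% of 32851 windows of all genes. The box that binds the general transcription machinery, TATAAA, stood in 0 of the 6, against 13.6% of all windows. The letters bound by the factor NF-Y, CCAAT, stood in 3 (Acan, Matn3 and Ucma), against 37.4%. The box read by SP1 proteins, GGGCGG, stood in 3 (Acan, Cytl1 and Matn3), against 35.7%. The windows of Matn3 and Ucma are printed because both genes were without reads in 1 knockout library. Capitals mark the letters found. Matn3 holds the NF-Y letters 3 times, in 1 case as the reverse complement, and the SP1 box 3 times in copies that overlap. Ucma holds the NF-Y letters 1 time.
Matn3 promoter (chr12:8947679-8947978, plus strand): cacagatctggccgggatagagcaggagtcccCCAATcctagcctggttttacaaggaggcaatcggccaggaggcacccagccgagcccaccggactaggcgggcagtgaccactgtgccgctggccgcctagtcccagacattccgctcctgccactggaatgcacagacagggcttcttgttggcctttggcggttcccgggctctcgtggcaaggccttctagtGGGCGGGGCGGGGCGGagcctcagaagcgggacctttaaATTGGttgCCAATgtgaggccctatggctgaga
Ucma promoter (chr2:4975872-4976171, plus strand): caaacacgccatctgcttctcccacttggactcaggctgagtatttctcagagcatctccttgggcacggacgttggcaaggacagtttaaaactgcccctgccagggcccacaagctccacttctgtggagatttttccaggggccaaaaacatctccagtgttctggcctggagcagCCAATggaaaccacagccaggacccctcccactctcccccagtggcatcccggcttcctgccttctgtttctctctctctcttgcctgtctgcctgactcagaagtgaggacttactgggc

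Levels are in FPKM, fragments per exon kilobase adjusted for depth, and between 16727111 and 20118034 reads were recovered per library. The host transcript of the cluster, A330023F24Rik, stood at 2.51, 3.25 and 4.08 FPKM in knockout bone, against 0.197, 0.153 and 0.136 FPKM in WT bone. It was higher in the knockout (limma adjusted p = 0.00676), so no loss of a transcript checks the deletion. Defining genes of bone were present in every library: Bglap, which encodes osteocalcin, ranged from 132 to 414 FPKM in knockout and from 446 to 1015 FPKM in WT libraries. Knockout replicate 1 and WT replicate 2 stood apart, with FPKM totals of 487102 and 489576, against 391599 to 397024 in the other knockout libraries and 355787 to 404994 in the other WT libraries. Across genes, deviation from the group mean correlated with exon length at a Spearman's rho of -0.45, 0.28 and 0.40 in knockout replicates 1, 2 and 3, against 0.41, -0.42 and 0.18 in WT replicates 1, 2 and 3. Deviations from a mean of 3 libraries share that mean, so these values are not independent. The exon lengths of the 10 genes run from 591 bases (Clec3a) to 7469 bases (Acan).

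To ask whether RNA of cartilage matrix proteins differs between the genotypes, the genes were read from a test over all genes. In every one of the 10, all 3 knockout libraries lay below all 3 WT libraries, and the knockout mean was 4.17% (Matn3) to 10.1% (Snorc) of the WT mean. Such an order was found in 13.7% of the 13619 genes tested, and the opposite order in 14.7%. By limma on log2(FPKM + 1), with Benjamini-Hochberg adjustment over all genes and a threshold of 0.05, 9 of the 10 fell and 0 rose, where 3.82% of genes tested fell and 1.34% rose (5.16% in either direction). The exception was Snorc. The median log2 change of the 10 was -3.33, against 0.06 over all genes tested. Acan, Hapln1, Matn3 and Ucma averaged under 1 FPKM in knockout bone, so these 4 reached the minimum mean of 1 FPKM through their WT libraries. Counts of calls depended on single libraries: 3 of the 10 passed without WT replicate 1 (Comp, Hapln1 and Matn3), 6 without knockout replicate 1, and 3 without both libraries that stood apart (Comp, Matn3 and Ucma).

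**Figure D1:**
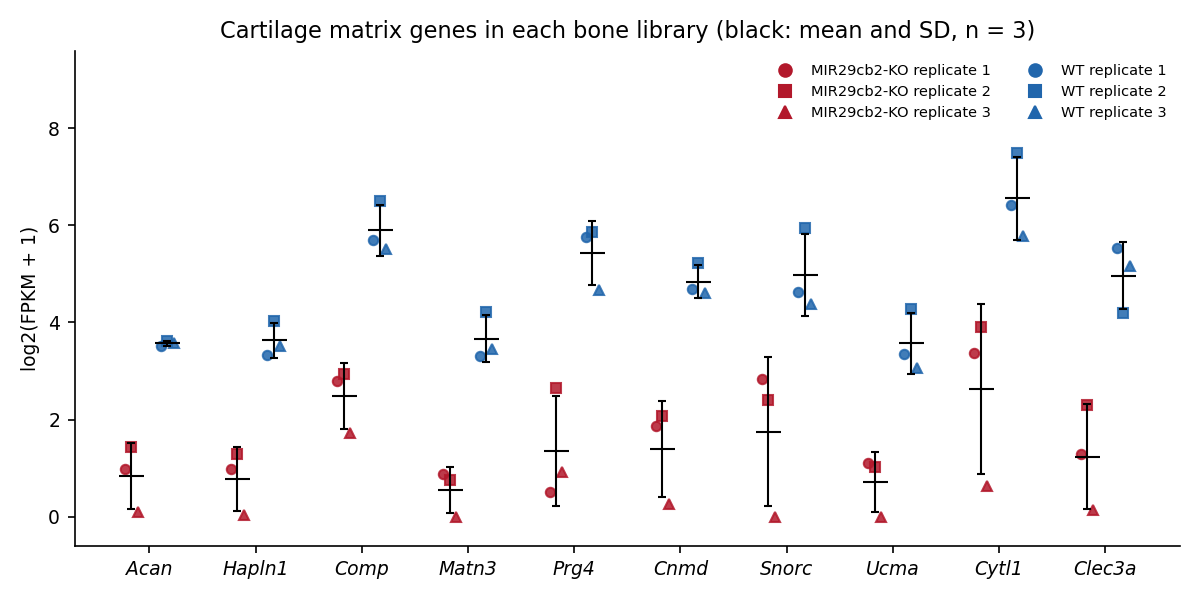
Level of each gene, as log2(FPKM + 1), in the 3 MIR29cb2-KO libraries (red, left) and the 3 WT libraries (blue, right), with marker shapes for replicate numbers and black bars for the mean and SD. In each of the 10 genes every red point lies below every blue point, and in 9 of them the lowest red point is knockout replicate 3.

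The core of the aggrecan gel was measured by Acan and Hapln1. Acan (ENSMUSG00000030607, chr7:79053483-79115099), which encodes aggrecan, had 0.977, 1.69 and 0.0696 FPKM in knockout bone, from 121, 220 and 9 reads, against 10.4, 11.3 and 11 FPKM in WT bone, from 1595, 1647 and 1488 reads. Relative to the mean, the WT libraries were closer together in Acan than in the other 9 genes, and the knockout libraries were spread widely, with replicate 3 at 0.639% of the WT mean. The log2 change was -2.74 ± 0.31 (SE, n = 3 each; limma adjusted p = 0.0106), and the call was lost in 2 of 17 alternatives (highest adjusted p 0.0562).

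Hapln1 (ENSMUSG00000021613, chr13:89539796-89611652), link protein, had 0.981, 1.46 and 0.0196 FPKM in knockout bone, from 96, 150 and 2 reads, against 9.11, 15.4 and 10.5 FPKM in WT bone. Its log2 change was -2.86 ± 0.34 (limma adjusted p = 0.0122), and the call was lost in 1 of 17 alternatives, without both libraries that stood apart (0.0562). Of all pairs among the 10 genes, Acan and Hapln1 had the most similar profiles over the 6 libraries, with a root mean square distance of 0.19 between their gene-centred log2(FPKM + 1) values. Their knockout libraries also had the same order, with replicate 2 highest and replicate 3 lowest. Comp, Cnmd, Cytl1 and Clec3a shared that order, so it was not particular to this pair. Hapln1 is 1 of the 2 genes with a seed match, and whether the match bears on its level was not tested. A pseudogene, Gm8546, overlaps it on the opposite strand.

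The adaptor proteins were Comp and Matn3. Comp (ENSMUSG00000031849, chr8:70373558-70382066), a thrombospondin family member that binds collagen and is also made in tendon, had 5.98, 6.66 and 2.28 FPKM in knockout bone, against 50.9, 89.2 and 44.6 FPKM in WT bone. Comp had a log2 change of -3.42 ± 0.38 (limma adjusted p = 0.0104). Knockout replicate 3 kept 3.70% of the WT mean of Comp, from 117 reads, the highest share of the 10 genes in that library.

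Matn3 (ENSMUSG00000020583, chr12:8947929-8972028), matrilin-3, had 0.841, 0.686 and 0 FPKM in knockout bone, from 42, 36 and 0 reads, against 8.94, 17.6 and 10 FPKM in WT bone, from 555, 1035 and 546 reads. The 0 reads allow a level of up to 0.0575 FPKM (3 reads). The log2 change was -3.12 ± 0.31, with the lowest adjusted p of the 10 genes (limma, 0.00847), and the gene passed under all 17 alternatives. Comp did so too (highest adjusted p 0.0495). Matn3 carries the 8mer seed match printed above, and whether the match bears on its level was not tested.

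The lubricant was measured by Prg4 (ENSMUSG00000006014, chr1:150449412-150466165), which encodes lubricin. It had 0.423, 5.23 and 0.891 FPKM in knockout bone, from 30, 390 and 66 reads, against 53.4, 57.0 and 24.5 FPKM in WT bone, from 4711, 4760 and 1891 reads. Among the knockout libraries replicate 2 was the highest and replicate 1 the lowest, an order no other of the 10 genes had. The log2 change was -4.08 ± 0.58 (limma adjusted p = 0.0172), the second largest fall of all genes tested on the log2(FPKM + 1) scale, while by share of the WT mean Matn3 lay lower (4.17%, against 4.85% for Prg4). The call was lost in 5 of 17 alternatives (highest adjusted p 0.0747), among them those without WT replicate 1, WT replicate 2 or knockout replicate 1. The gene lies over Tpr on the opposite strand, which stood at 15.9, 20.6 and 22.7 FPKM in knockout bone, against 20.3, 12 and 18.7 FPKM in WT bone. Whether strand was used in counting is not known, so reads from the overlap cannot be assigned.

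Small proteins secreted by cartilage cells or held at their surface made up the rest. Cnmd (ENSMUSG00000022025, chr14:79637690-79662170), chondromodulin, which inhibits vessel growth, had 2.62, 3.18 and 0.188 FPKM in knockout bone, against 24.7, 36.6 and 23.3 FPKM in WT bone (log2 change -3.45 ± 0.47, limma adjusted p = 0.0162). The call of Cnmd was lost in 3 of 17 alternatives (highest adjusted p 0.0640). Cytl1 (ENSMUSG00000062329, chr5:37735519-37739820), a cytokine-like protein of cartilage, had 9.37, 13.9 and 0.547 FPKM in knockout bone, against 84.1, 178 and 53.8 FPKM in WT bone, where it had the highest mean of the 10. Its libraries varied widely within both genotypes. The log2 change was -3.92 ± 0.86 with a limma adjusted p of 0.0491, and it missed the threshold in 10 of 17 alternatives (highest adjusted p 0.140).

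Clec3a (ENSMUSG00000008874, chr8:114418086-114425846), a C-type lectin of cartilage, had 1.43, 3.89 and 0.0978 FPKM in knockout bone, from 14, 40 and 1 reads, against 45.4, 17.4 and 34.8 FPKM in WT bone, from 553, 201 and 371 reads. It was the only 1 of the 10 that was lowest in WT replicate 2, where the other 9 were highest, and it has the shortest exon length of the group. Clec3a had a log2 change of -3.73 ± 0.56 (limma adjusted p = 0.0211). The call was lost in 6 of 17 alternatives (highest adjusted p 0.0849), among them those without WT replicate 1, WT replicate 3 or knockout replicate 1.

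Snorc (ENSMUSG00000026258, chr1:87470271-87475482), a small membrane proteoglycan of chondrocytes, had 6.18, 4.30 and 0 FPKM in knockout bone, from 74, 54 and 0 reads, against 23.9, 60.5 and 19.7 FPKM in WT bone, from 356, 852 and 257 reads. The log2 change was -3.24 ± 0.76 and did not pass (limma adjusted p = 0.0609). The groups did not overlap, but both were widely spread, with WT replicate 2 at 174% and WT replicate 3 at 56.8% of the WT mean. It passed in 2 of 17 alternatives, with library weights (adjusted p = 0.0204) and with the exon-length trend removed (0.0370).

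Ucma (ENSMUSG00000026668, chr2:4976122-4985748), a Gla-rich protein of the upper growth plate, had 1.16, 1.04 and 0 FPKM in knockout bone, from 17, 16 and 0 reads, against 9.17, 18.5 and 7.40 FPKM in WT bone, from 167, 320 and 118 reads. Its log2 change was -2.86 ± 0.40 (limma adjusted p = 0.0167). The 0 reads of knockout replicate 3 allow up to 0.196 FPKM of Ucma and up to 0.240 FPKM of Snorc. The call of Ucma rested on few knockout reads and was lost in 5 of 17 alternatives, such as voom on the recovered reads (adjusted p = 0.0509).

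Set in order by FPKM, a level per length, the WT means ran from Cytl1 (105 ± 64.9, SD, n = 3) through Comp (61.6 ± 24.2), Prg4 (45 ± 17.8), Snorc (34.7 ± 22.4), Clec3a (32.5 ± 14.1) and Cnmd (28.2 ± 7.30) to Matn3 (12.2 ± 4.71), Hapln1 (11.7 ± 3.30), Ucma (11.7 ± 5.99) and Acan (10.9 ± 0.481). Of neighbours in this order, Cnmd and Matn3 differed by more than the SD of either, and the others by less than the larger of their SDs. In knockout bone the order ran from Cytl1 (7.93 ± 6.78) through Comp (4.97 ± 2.36), Snorc (3.49 ± 3.17), Prg4 (2.18 ± 2.65), Cnmd (1.99 ± 1.59) and Clec3a (1.80 ± 1.92) to Acan (0.913 ± 0.813), Hapln1 (0.820 ± 0.733), Ucma (0.733 ± 0.638) and Matn3 (0.509 ± 0.447), where all neighbours differed by less than the larger of their SDs. Matn3 came seventh in WT bone and last in knockout bone.

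**Figure D2:**
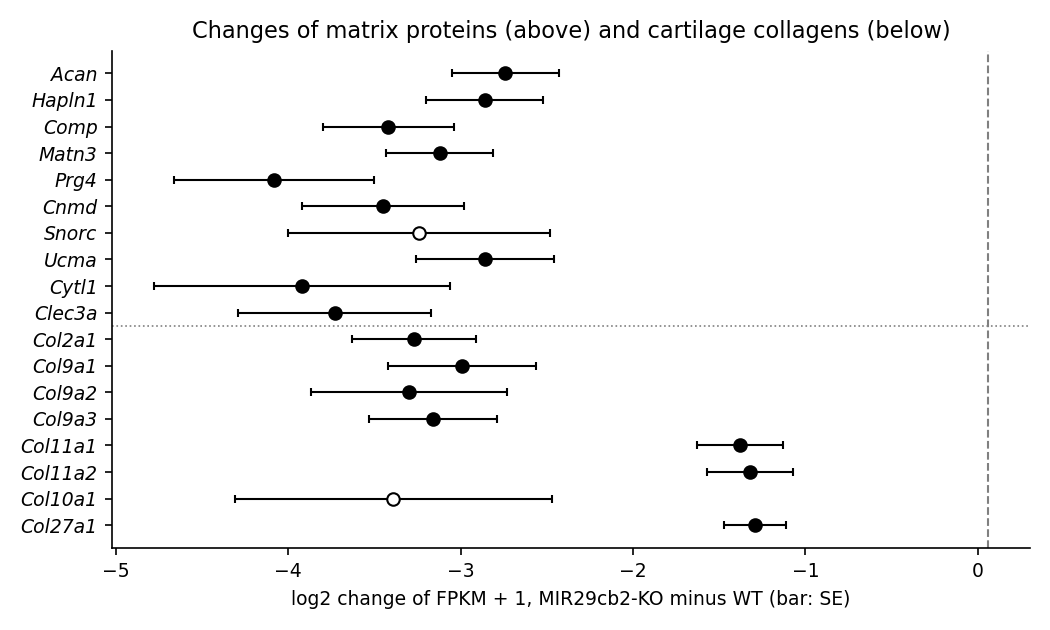
Log2 change of FPKM + 1 (MIR29cb2-KO minus WT, with SE) for the 10 genes above the dotted line and for 8 cartilage collagens below it; filled points passed in limma. All 10 genes lie between -4.08 and -2.74, as do the collagen II, IX and X genes, while Col11a1, Col11a2 and Col27a1 lie between -1.38 and -1.29, and the dashed line marks the median of all genes, 0.06.

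Summed over the 10 genes, knockout libraries held 30, 42 and 4.09 FPKM, from 932, 1607 and 211 reads, against 320, 502 and 240 FPKM in WT libraries. The knockout libraries were therefore unlike one another. Over the 10 genes the median level was 8.93%, 11.8% and 0.410% of the WT mean in knockout replicates 1, 2 and 3, against 81.3%, 138% and 77.4% in WT replicates 1, 2 and 3. Knockout replicate 3 was the lowest knockout library in 9 of the 10 genes, and 3 of them had 0 reads in it. Col10a1, the collagen of hypertrophic growth plate cartilage, was likewise lowest in knockout replicate 3, with 15.3, 10.7 and 0.129 FPKM in knockout bone, against 53.0, 70.2 and 63.4 FPKM in WT bone (limma adjusted p = 0.0868).

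Other lists varied in this. Among genes with a WT mean of at least 1 FPKM, knockout replicate 3 was the lowest knockout library in 8 of 8 cartilage collagens, 5 of 10 growth plate signalling genes, 1 of 9 articular and synovial genes and 0 of 5 tendon genes. It was also the lowest in 6 of 7 adipocyte markers and 5 of 7 erythroid markers, so this order was not particular to cartilage. The level was higher in those lists, with medians of 20.9% and 90.1% of the WT mean in knockout replicate 3. In that library the medians were 0.41% in the 10 genes and 2.91% in the cartilage collagens. Cilp, which encodes a matrix protein of the intermediate articular zone, had 0.241, 1.32 and 1.13 FPKM in knockout bone, against 8.35, 12.4 and 8.76 FPKM in WT bone. Like Prg4, it was lowest in knockout replicate 1. Fmod, a collagen-binding proteoglycan of tendon, stood at 8.01%, 7.51% and 15.2% of its WT mean in knockout replicates 1, 2 and 3, and Thbs4, a thrombospondin of tendon, at 21.3%, 21.7% and 38.0%. With 3 knockout libraries these orders are a description of those libraries, without a test.

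**Figure D3:**
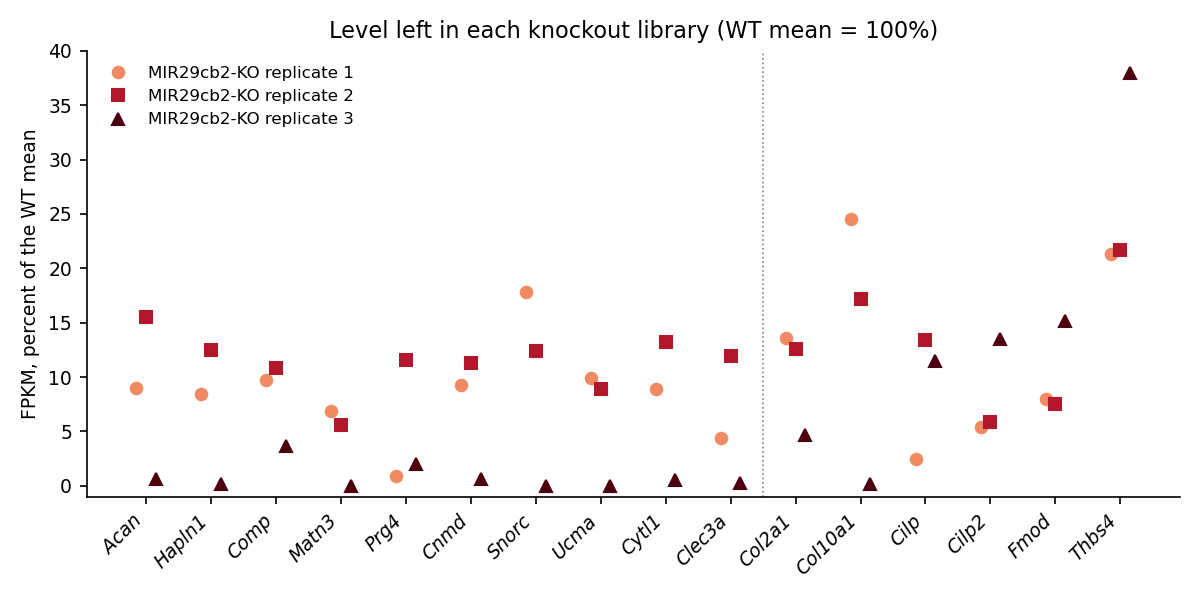
FPKM in each MIR29cb2-KO library as a percentage of the WT mean, for the 10 genes (left of the dotted line) and 6 further genes of cartilage, joint surface and tendon. Knockout replicate 3 (triangles) lies at or under 3.70% in all 10 genes and at 0.208% for Col10a1, but at 11.5% for Cilp and 38.0% for Thbs4; knockout replicate 1 (circles) is lowest for Prg4, at 0.940%, and for Cilp, at 2.45%.

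The articular gene Prg4 was then set against 4 genes mainly known from the growth plate, Cnmd, Matn3, Snorc and Ucma. Within each library the log2(FPKM + 1) value of the growth plate gene was taken from that of Prg4, and these differences were compared between genotypes. Cnmd had reads in every library, but only 6 in knockout replicate 3, where the added 1 weighs on the difference. For Cnmd the differences were -1.35, 0.58 and 0.67 in knockout bone, against 1.08, 0.62 and 0.07 in WT bone. The groups overlapped, and the change was -0.62 (two-sided exact permutation p = 0.6, n = 3 each; adjusted p = 0.6 over the 4 genes). With 3 libraries against 3 this p cannot go below 0.1.

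In FPKM, Prg4 stood at 0.161, 1.65 and 4.74 times Cnmd in knockout replicates 1, 2 and 3, against 2.16, 1.56 and 1.05 times in WT replicates 1, 2 and 3. Knockout replicates 1 and 3 lay on opposite sides of all 3 WT libraries, but the ratio in replicate 3 rests on 6 reads of Cnmd. A difference between the changes of Prg4 and Cnmd was thus not detectable beyond the spread of the knockout libraries, and that does not show that they changed alike. Without knockout replicate 1 the change was 0.03, and with a pseudocount of 0.1 in all libraries it was -0.57.

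Matn3, Snorc and Ucma had 0 reads in knockout replicate 3, so their difference there, 0.92 for all 3 genes, holds only the level of Prg4 and the added 1, and their ratio to Prg4 has no value in that library. The changes of -0.96 for Matn3, -0.84 for Snorc and -1.22 for Ucma therefore depend on the pseudocount, and they were -0.10, -0.46 and -0.53 with a pseudocount of 0.1. No conclusion on genotype is drawn from these 3 genes, and the ratios that follow describe single libraries. In the other knockout libraries, replicates 1 and 2, Prg4 stood at 0.503 and 7.63 times Matn3, against 5.98, 3.24 and 2.44 times in WT replicates 1, 2 and 3. It stood at 0.364 and 5.03 times Ucma in those knockout libraries, against 5.83, 3.07 and 3.31 times in WT replicates 1, 2 and 3. Relative to Snorc, it stood at 0.0684 and 1.22 times in the same knockout libraries, against 2.23, 0.942 and 1.24 times in WT replicates 1, 2 and 3. For all 3 genes, knockout replicate 1 lay below every WT library. Knockout replicate 2 lay above every WT library for Matn3 and within the WT range for Ucma and Snorc.

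Other genes of cartilage were read from chosen lists, with the same test. Of 8 cartilage collagens 7 fell and 0 rose (median log2 change -3.08), among them Col2a1, the main cartilage collagen (9.92 ± 4.73 FPKM in knockout and 96.4 ± 13.4 in WT bone, SD, n = 3 each), Col9a1 (1.64 ± 1.37 in knockout and 17.6 ± 2.03 in WT) and Col9a2 (2.69 ± 2.33 in knockout and 29.3 ± 8.08 in WT). Of 16 other cartilage matrix and secreted proteins 9 were tested and 7 fell (median -1.34). Chad, chondroadherin, fell (9.44 ± 6.73 FPKM in knockout and 89.3 ± 35.9 in WT bone). Matn1 (0.287 ± 0.283 in knockout and 1.34 ± 0.633 in WT) and Epyc (0.161 ± 0.139 in knockout and 1.81 ± 0.454 in WT) lay under the minimum mean.

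Of 8 chondrocyte transcription factors only 2 reached the minimum mean, Sox6 and Trps1, and neither passed (0 of 2 also at an unadjusted p under 0.05 and with voom). The others were too low for the test, so these calls do not speak for the list. In 7 of the 8 every knockout library lay below every WT library. This order was found in 13.7% of the 13619 genes tested, but of the 7 only Trps1 was among the genes tested. No such share was computed for genes under the minimum mean, so the 13.7% is no background for the others. Sox9, the main regulator of Acan and Col2a1, was low in whole bone, at 0.188 ± 0.0900 FPKM in knockout and 1.74 ± 0.872 FPKM in WT bone (SD, n = 3; two-sided exact permutation p = 0.1, the smallest possible). Sox5 had 0.0864 ± 0.0253 FPKM in knockout and 0.282 ± 0.00944 FPKM in WT bone (n = 3, exact permutation p = 0.1). Sox6, which red cell precursors also use, was at 9.16 ± 2.35 FPKM in knockout and 9.72 ± 2.97 FPKM in WT bone.

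Of 12 genes of growth plate signalling and the hypertrophic zone 10 were tested and 2 fell, Fgfr3 and Mef2c (median -1). At an unadjusted p under 0.05 in limma there were 9 of the 10, against 2812 of all 13619 genes tested. With library weights 7 passed, and with voom 1, so the low count of calls does not show that these genes were unchanged. Ihh, the hedgehog ligand of prehypertrophic chondrocytes, had 0.406 ± 0.325 FPKM in knockout and 1.82 ± 0.614 in WT bone and did not pass (limma adjusted p = 0.0687). Pth1r, the receptor of parathyroid hormone, which osteoblasts share, did not pass either (0.0782), and its ligand gene Pthlh lay under the minimum mean. Of 11 genes of the articular surface and synovial lining 9 were tested and 6 fell (median -0.97). These included Cilp (log2 change -2.55), Cilp2 (-1.75) and Abi3bp (-0.94). Cilp and Cilp2 averaged 0.898 and 0.279 FPKM in knockout bone, so they reached the minimum mean through their WT libraries. The lists overlap: Cilp and Cilp2 also count among the other cartilage matrix and secreted proteins. Col10a1 stands in both the collagen list and the growth plate list.

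The enzymes that build the sugar chains of aggrecan differed less between genotypes than its core protein. Of 14 genes of chondroitin sulfate and hyaluronan synthesis 12 were tested, and 0 passed in limma in either direction (median -0.08). At an unadjusted p under 0.05 there were 2 of the 12, and 1, Chpf, a chondroitin polymerising factor, passed as lower with voom on the recovered reads. Library weights gave 3 lower (Chpf, Papss2 and Csgalnact1). Chpf had 3.30, 2.70 and 2.28 FPKM in knockout bone, against 5.77, 7.51 and 4.21 FPKM in WT bone (limma adjusted p = 0.0625). Xylt1, which starts the chains, stood at 3.51 ± 1.22 FPKM in knockout and 4.15 ± 1.35 in WT bone, Csgalnact1 at 2.34 ± 0.478 in knockout and 2.92 ± 0.678 in WT, and Chsy1 at 12.1 ± 0.718 in knockout and 12.1 ± 0.223 in WT (SD, n = 3 each). These enzymes are not particular to cartilage. Of 11 proteases of aggrecan and COMP, or their inhibitor, 5 were tested and 1 fell, the serine protease Htra1 (-1.37). The aggrecanase Adamts5 had 3.85 ± 0.461 FPKM in knockout and 3.11 ± 0.127 in WT bone (limma adjusted p = 0.322), Adamts1 had 2.55 ± 0.251 in knockout and 3.86 ± 0.791 in WT, and Adamts4 had 0.416 ± 0.294 in knockout and 0.474 ± 0.151 in WT.

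**Figure D4:**
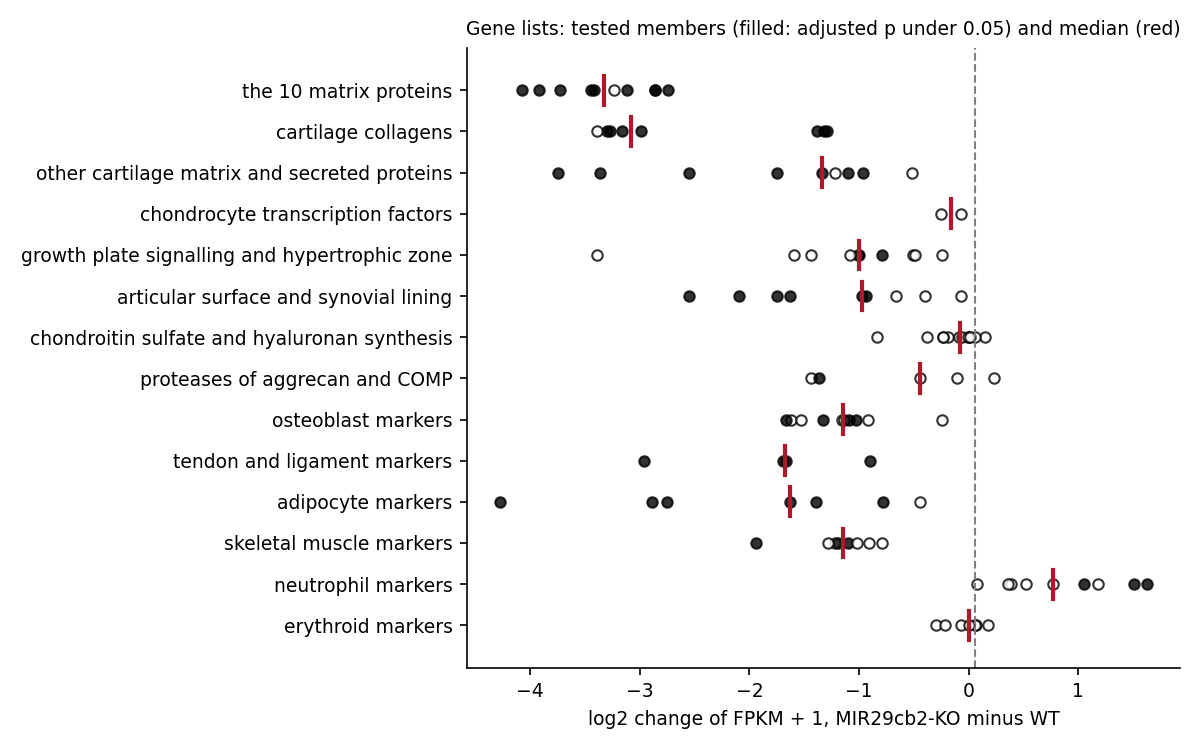
Log2 change of FPKM + 1 (MIR29cb2-KO minus WT) of every tested gene of the 14 lists, filled where it passed in limma, with the list median in red and the median of all genes dashed. The 10 matrix proteins (top row, median -3.33) and the cartilage collagens (-3.08) lie farthest to the left, the chondroitin sulfate and hyaluronan genes lie around 0, and the neutrophil genes lie to the right (0.77).

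Some markers of other tissues differed between the genotypes as well. Tendon and ligament markers summed to 6.43 to 11.6 FPKM in knockout and 46.7 to 54.7 FPKM in WT libraries. Of the 7 genes 4 were tested and all 4 fell, among them Tnmd and Scx. Tnmd and Scx averaged 0.231 and 0.592 FPKM in knockout bone, so they reached the minimum mean through their WT libraries. Mkx lay under the minimum mean, and its groups overlapped. Adipocyte markers summed to 87.9 to 163 FPKM in knockout and 520 to 795 FPKM in WT libraries (6 of 7 tested genes of 8 fell, such as Plin1, Cidec and Adipoq). Plin1 averaged 0.34 FPKM in knockout bone and likewise reached the minimum mean through its WT libraries. Osteoblast markers summed to 705 to 1484 FPKM in knockout and 1664 to 3064 FPKM in WT libraries (4 of 10 fell; Bglap, Bglap2 and Col1a1 did not pass). Skeletal muscle markers summed to 1941 to 3040 FPKM in knockout and 3928 to 6829 FPKM in WT libraries, with 3 of 8 lower (Ckm fell; Acta1 and Myh4 did not pass). Neutrophil markers summed to 39773 to 51346 FPKM in knockout and 21213 to 40161 FPKM in WT libraries, with 3 of 9 higher (Mpo and Ctsg rose; Elane did not pass). Erythroid markers (Alas2, Slc4a1 and others), 7 in all, summed to 25349 to 45066 FPKM in knockout and 26073 to 54787 FPKM in WT libraries, with 0 of 7 past the threshold in limma (0 also at an unadjusted p under 0.05 and with voom). At an unadjusted p under 0.05 in limma there were 9 of 10 osteoblast and 8 of 8 skeletal muscle markers. There were also 7 of 7 adipocyte, 4 of 4 tendon and 4 of 9 neutrophil markers tested. Over all genes tested there were 2812 of 13619. No listed marker of these tissues was at 0 in every knockout library. The part of tissue makeup in the falls of the 10 matrix genes was not tested.

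Outside the lists, the genes closest in profile to the mean of the 9 genes other than Prg4, over the 6 libraries, were Rbp4 (root mean square distance 0.49 on the log2 scale), Anxa8 (0.56), Cdo1 (0.58), the immunoglobulin segment Ighv8-8 (0.59) and Adig (0.61). Those closest to Prg4 were Ighv8-8 (0.65), Igkv3-4 (0.87), Retn (0.87), Dpt (0.93) and Vpreb1 (0.95). For comparison, the other 9 matrix genes lay 0.74 (Comp) to 1.13 (Snorc) from Prg4, so Ighv8-8 was nearer to it than any of them. Retn, the gene of the fat cell hormone resistin, had 0, 0.473 and 0.293 FPKM in knockout bone, against 9.99, 8.41 and 3.97 FPKM in WT bone, and like Prg4 it was lowest in knockout replicate 1 and in WT replicate 3.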

How the data were processed

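Bone RNA was measured in 3 libraries from MIR29cb2-KO mice and 3 from WT mice, grouped by the sample titles. The authors deposited FPKM values (fragments per kilobase of exon, normalised for library size in a way the sources do not describe) for 54532 genes. Per the submitters' processing notes, reads were processed with Bowtie 0.12.2 on mm10. How genes were counted, and whether by strand, is not given in the sources used here. GENCODE M21, made for that build, supplied symbols, coordinates and exon lengths for 54495 gene identifiers.

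Values were analysed as log2(FPKM + 1) with limma 3.58.1 in R 4.3.3 (variance trend on expression) over the 13619 genes with a mean of at least 1 FPKM, with Benjamini-Hochberg adjustment over all of them and a threshold of 0.05. On this scale the changes of low genes come out too small. FPKM multiplied by exon length moved in whole steps: with a tolerance of 0.01 reads, 96.9% of 29600 genes with a value gave whole reads in all 6 libraries. All read numbers in this text were recovered in this way from the FPKM values. They cover counting error only. The limma step was tested on simulated data. These held no exon-length trend and no library that stood apart, so that test does not cover such differences between the libraries. Within a group, chi-square per degree of freedom between libraries was 12.9 to 73.2, so no library was treated as a repeat of another. The labels do not tie libraries to animals, and p-values therefore reflect spread that may be technical.

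The 10 genes, the lists and the tests were chosen with earlier results of these data known. The text names the 10 genes, the first 3 genes of each other list (except 1 erythroid gene, which is not reported here), the host transcript, and the 5 genes most like the group in profile. Genes outside this rule (Col10a1, Fmod, Thbs4, Tpr, Ecrg4, Mgp, Scrg1, Crtac1, Prelp, Erg, Htra1, Chpf, Papss2, Fgfr3, Mef2c, Trps1 and the collagens XI and XXVII) were chosen after their values were seen. Alternatives covered the pseudocount, the filter, scaling, variance model, library weights, replicate block, voom on recovered reads and each library left out; leaving out 2 libraries together and removing the exon-length trend were chosen after seeing the data. Sequences are RefSeq's (GRCm38.p6) or GENCODE M21's. Figures were drawn with matplotlib 3.10.9.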

Additional observations from a re-analysis of the deposited data

How the results depend on the processing

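Under all 17 alternatives each of the 10 genes kept a lower level in MIR29cb2-KO bone. In these genes every MIR29cb2-KO library lay below every WT library. Leaving out libraries or changing the pseudocount, filter, variance model or block could therefore not reverse the direction, which lends it no added weight. Over all genes, 520 were lower and 183 higher. These became 100 and 43 with no filter on low values, 1803 and 1551 with library weights, 108 and 19 with the replicate number as a block, 153 and 85 without the 2 libraries that stood apart (MIR29cb2-KO replicate 1 and WT replicate 2), and 829 and 377 with the exon-length trend removed. With a minimum mean of 5 FPKM, where fewer genes were tested, 232 were lower. With 1 library left out, 48 to 340 were lower and 14 to 77 higher. Of the 10 genes, 9 passed. Only 4 passed with no filter, 3 without the 2 libraries that stood apart, and 3 to 9 with 1 library left out, while 10 passed with library weights and with the length trend removed. Of the other cartilage list genes 21 passed as lower, against 8 with no filter, 11 with a minimum mean of 5 FPKM, 10 with the replicate block, 9 without the 2 libraries and 4 to 15 with 1 library left out. None passed as higher, except 1 with library weights. The cause of these shifts was not tested.

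The replicate numbers did not pair the libraries. Deviations of same-numbered libraries from their group means correlated at -0.49, -0.27 and 0.16 across genes, so the block is read as an alternative only; 8 of the 10 genes passed under it. The difference between the changes of Prg4 and a growth plate gene ran from -1.49 to -0.10 for Matn3, -0.98 to 0.05 for Cnmd, -1.50 to 0.13 for Snorc and -1.70 to -0.53 for Ucma over the alternatives, and it was above 0 for Cnmd and Snorc without MIR29cb2-KO replicate 1. Depth limits the lowest values: Matn3, Snorc and Ucma had 0 reads in MIR29cb2-KO replicate 3.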

Other observations

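Some secreted proteins found in cartilage and in other tissues differed less than the 10 genes described. Mgp, matrix Gla protein, which vessels and fibroblasts also make, stood at 55.9, 53.9 and 32.0 FPKM in MIR29cb2-KO bone, against 94.5, 186 and 71.8 FPKM in WT bone (log2 change -1.22, limma adjusted p = 0.119). Scrg1 had 18.9, 16.8 and 13.5 FPKM in MIR29cb2-KO bone, against 16.8, 38.2 and 20.7 FPKM in WT bone, and the groups overlapped (limma adjusted p = 0.386). Crtac1 stood at 0.878 ± 0.235 FPKM in MIR29cb2-KO and 0.861 ± 0.171 FPKM in WT bone (SD, n = 3 each). Prelp, a leucine-rich proteoglycan of many connective tissues, fell (log2 change -1.10, limma adjusted p = 0.0103) with 39.8% to 50.7% of its WT mean left in each MIR29cb2-KO library.

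Ecrg4, a small secreted protein, was close to the 10 genes in size of change, with 2.41, 4.77 and 0.833 FPKM in MIR29cb2-KO bone, against 31.9, 80.7 and 31.7 FPKM in WT bone (log2 change -3.75, limma adjusted p = 0.0159). Erg, a transcription factor of articular cartilage and of endothelium, stood at 9.53 ± 0.602 FPKM in MIR29cb2-KO and 10.1 ± 0.541 FPKM in WT bone (limma adjusted p = 0.767).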
